A study of Mus musculus with 2 samples.

Results

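Cluster a of the intermediate lobe (IL) cells held 94 of the 528 cells that passed the quality limits in a single-cell RNA-Seq study of the mouse neurohypophysis (NH). The deposited table of cluster means lists it as "neural progenitor a". Its members were found by solving the 11 columns of that table for the single cells by least squares, each cell going to the column in which it had the largest weight. Every one of the 528 cells had a weight of at least 0.972 in its own column and at most 0.00333 in any other. The 94 cells came in equal numbers from both pools (47 and 47), and cluster b, the closest cluster, held 54 cells (33 and 21). Cells kept from the 2 pools shared 0 barcodes.

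The NH of C57BL/6 male mice aged 3 months was dissected, and tissue of 5 mice was combined in each of 2 pools. There was 1 condition, wild type and untreated, with no control group, so the comparisons below are between cells of the same pools. The cells were freed with enzymes and captured on the 10x Chromium platform, and each pool gave its own library. IL tissue lies against the NH and came along with the dissection, so the share of IL cells depends on the cut and says nothing of their number in the gland.

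The IL of rodents consists mostly of melanotropes. These cells make proopiomelanocortin, encoded by *Pomc*, and cut it into alpha-melanocyte-stimulating hormone and beta-endorphin. The prohormone convertase encoded by *Pcsk2* takes part in these cuts with the help of its chaperone *Scg5*. Carboxypeptidase E (*Cpe*) trims the ends and the enzyme encoded by *Pam* adds the terminal amide. The products are stored in dense-core granules with granins such as *Chga* and *Scg2* and are released by calcium-dependent exocytosis under the restraint of dopamine. *Pax7* is the transcription factor that sets melanotropes apart from corticotropes of the anterior lobe, which also make *Pomc*.

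Cluster a had 138654 unique molecular identifiers (UMIs) in pool 1 and 147805 in pool 2. A count of 0 therefore allowed up to 21.6 and 20.3 CPM (a gene's share of all UMIs of the cluster in a pool, on the usual scale), which is 3 counts per pool. The 4 markers given for IL cells were all found. *Pomc*, on chromosome 12 from 3954951 to 3960642 of GRCm38, had 130115 CPM in pool 1 and 97886 CPM in pool 2 (114000 ± 22790, SD, n = 2 pools). *Pcsk2*, on chromosome 2 from 143546156 to 143816285, had 4746 and 4350.3 CPM. *Resp18*, which encodes a protein of the secretory granule, had 1118 and 819 CPM, and *Gria2*, which encodes a subunit of AMPA-type glutamate receptors, had 303 and 480.4 CPM. For each of the 4 genes the levels of cluster a in both pools were above those of all 6 types other than a and b in the same pool. *Pomc* reached at most 4048 CPM there in pool 1 and 3117 CPM in pool 2, both in pituicytes. Of the granins *Scg2* and *Chga*, also used as markers of IL cells, *Chga* was above all 6 types in both pools. *Scg2* was so in pool 1, but in pool 2 it had 1157 CPM in cluster a and 1235 CPM in epithelial-like cells.

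**Figure D1:**
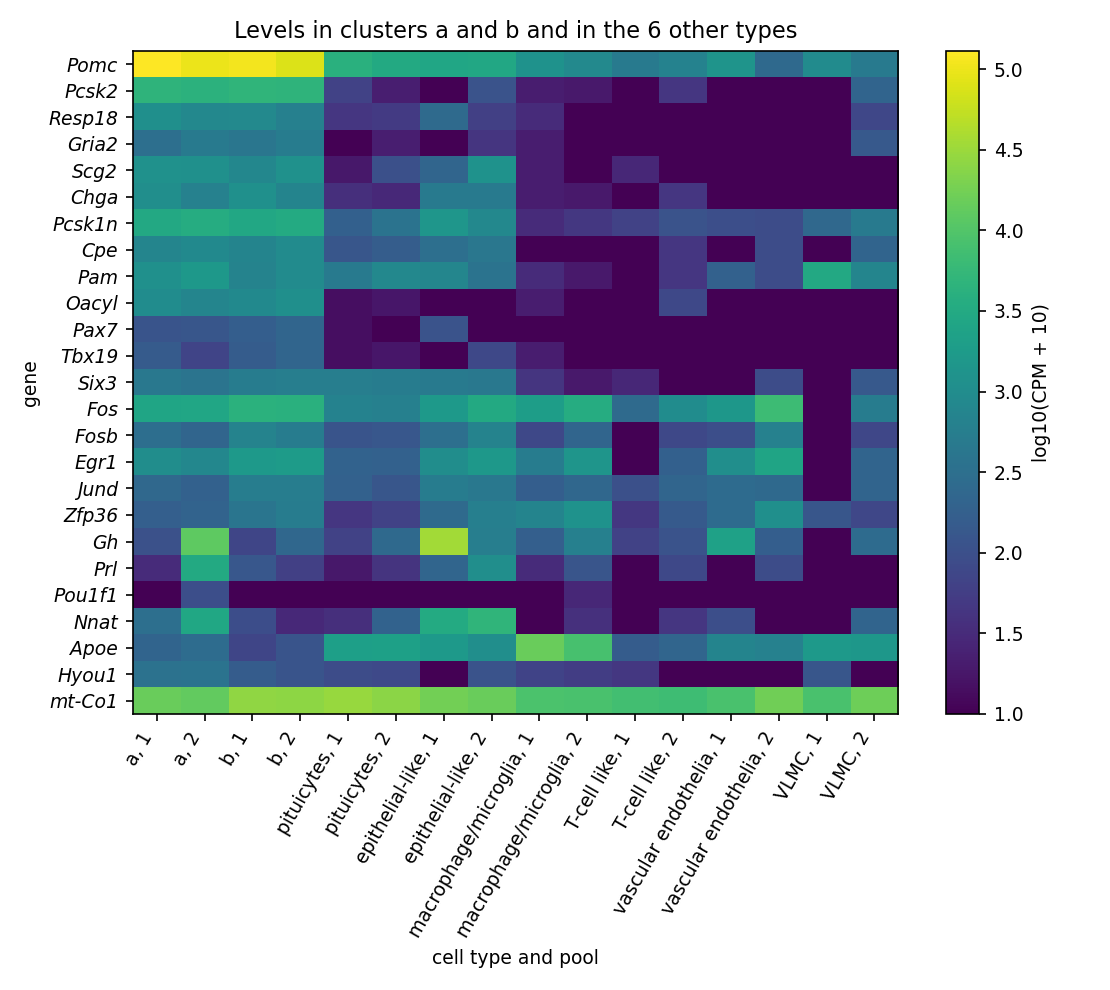
Level of 25 genes (rows) in cluster a, cluster b and the 6 other types of the study (columns, pools 1 and 2 side by side), as log10(CPM + 10) on the colour scale. *Pomc* and *Pcsk2* are high in both IL clusters in both pools, and *Gh* and *Prl* are high in cluster a in pool 2 and not in pool 1. The highest *Gh* level is that of epithelial-like cells in pool 1, at 34736 CPM.

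Genes that go with the name in the deposited table were found at low levels. Of 14 genes of neural progenitors, 8 had UMIs in cluster a in pool 1, led by *Msi1* with 20. In pool 2, 10 of the 14 had UMIs, led by *Sox4* with 24. *Nes*, *Prom1*, *Neurog2* and *Hes5* had 0 UMIs in cluster a in both pools. The summed level of the 14 genes was 411 CPM in pool 1 and 460.1 CPM in pool 2, and in cluster b it was 449 and 649 CPM. Of 16 cell cycle genes, none had 10 UMIs in clusters a and b together in each pool, and *Cdk1*, *Ccnb1*, *Ccnb2*, *Mcm5*, *Mcm6* and *Rrm2* had 0 UMIs in cluster a in both pools. Given the IL markers above, the cells are called IL cells of cluster a below.

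The 10 genes with most UMIs in cluster a were *Pomc* (18041 and 14468 UMIs), the nuclear RNA *Malat1*, the imprinted long RNA *Meg3*, 6 genes of the mitochondrial genome led by *mt-Co3* (2704 and 2903 UMIs), and *Gh*. *Gh*, the growth hormone gene of anterior lobe somatotropes, had 13 UMIs in pool 1 and 1833 in pool 2.

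Set against the highest of the 6 other types, 45 of 6834 genes (0.658%) were at least 2-fold higher in cluster a in both pools, as the ratio of CPM + 50. The clusters were built on these same cells, so the ratios describe cluster a and were not tested. Genes were ranked by the lower of their ratios in the 2 pools. By this order *Pomc* led with log2 ratios of 4.99 and 4.95, and *Pcsk2* followed with 5.51 and 4.15. *Oacyl*, which had 995 and 737 CPM in cluster a, had at most 11.3 CPM in another type in pool 1 and 68.8 CPM in pool 2. Further genes of secretory cells were among the first 10. *Ptprn*, a membrane protein of dense-core granules, had 404 and 325 CPM, *Snap25*, a SNARE protein of exocytosis, had 627 and 663 CPM, and *Resp18* ranked between *Snap25* and *Vstm2l*. *Bex2*, *Meg3*, *Vstm2l* and the orphan nuclear receptor *Nr4a2* completed the list, *Nr4a2* with log2 ratios of 2.06 and 1.83. All 10 were also found in cluster b. Its levels of *Oacyl* were 883 and 1121 CPM and those of *Ptprn* were 449 and 374 CPM.

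Markers of other cells were scarce in cluster a with a few cells as exceptions. The 6 T cell markers had 2 UMIs in pool 1 and 0 in pool 2. The 8 pituicyte markers summed to 52 UMIs in pool 1, of which 32 lay in a single cell, and to 11 UMIs in pool 2. The 8 macrophage markers summed to 10 and 27 UMIs, of which 14 lay in 1 cell of pool 2. The 4 erythrocyte markers summed to 9 and 85 UMIs, of which 74 lay in 1 cell of pool 2. The epithelial markers summed to 11 and 13 UMIs, those of oligodendrocytes to 8 and 13, those of vascular leptomeningeal cells to 1 and 3, and the neurohormone genes *Oxt* and *Avp* of hypothalamic neurons to 21 and 13. The endothelial genes *Emcn*, *Plvap*, *Flt1* and *Cldn5* had 0 UMIs in both pools. Free RNA was estimated from *Pomc* in immune cells (macrophages, microglia and T-cell like cells). It made up 6.10% of the UMIs of these immune cells in pool 1 and 5.19% in pool 2. The same shares were assumed for clusters a and b where free RNA was subtracted. The profile of free RNA was taken from empty barcodes of pool 1 alone, as 1500 barcodes are listed for pool 2. The value of pool 2 therefore assumes the same profile.

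The cells of cluster a differed among themselves in the hormone they carried. *Pomc* made up at least 1% of the UMIs in 83 of the 94 cells, 43 in pool 1 and 40 in pool 2. In the other 11 cells, 4 in pool 1 and 7 in pool 2, it stayed at or under 0.591%, and no cell lay between this value and 1.498%. Over all 47 cells of pool 1 the *Pomc* share ran from 0.0728% through a median of 11.3% to 29.7%. In pool 2 it ran from 0% through a median of 8.71% to 23.9%. In cluster b 53 of the 54 cells had *Pomc* at 1% or more.

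Most of the cells with little *Pomc* carried a hormone of the anterior lobe. In 7 cells of cluster a, all in pool 2, *Gh* or *Prl* made up at least 1% of the UMIs, and 6 of these had *Pomc* under 1%. *Gh* was the larger of the 2 hormones in 4 cells, with 910, 407, 371 and 119 UMIs. *Prl*, the prolactin gene of lactotropes, was the larger in 3 cells, with 305, 75 and 72 UMIs. These 7 cells held 1814 of the 1833 *Gh* UMIs, 463 of the 473 *Prl* UMIs and 13 of the 13 UMIs of *Pou1f1*, the transcription factor of somatotropes and lactotropes, that cluster a had in pool 2. In pool 1 no cell of cluster a exceeded 0.0739% for either hormone, and cluster b reached at most 0.353% and 0.244% in pools 1 and 2. The 12402 CPM of *Gh* in cluster a in pool 2 thus came almost all from these 7 cells. The 93.8 CPM of pool 1 rested on 13 UMIs, with at most 2 in a cell. The gonadotrope genes *Lhb* and *Fshb* had 0 UMIs in cluster a in both pools. The remaining 5 cells with little *Pomc* were shallow, with 1015 to 1695 UMIs, and 3 of them had at least 5 UMIs of pituicyte markers.

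**Figure D2:**
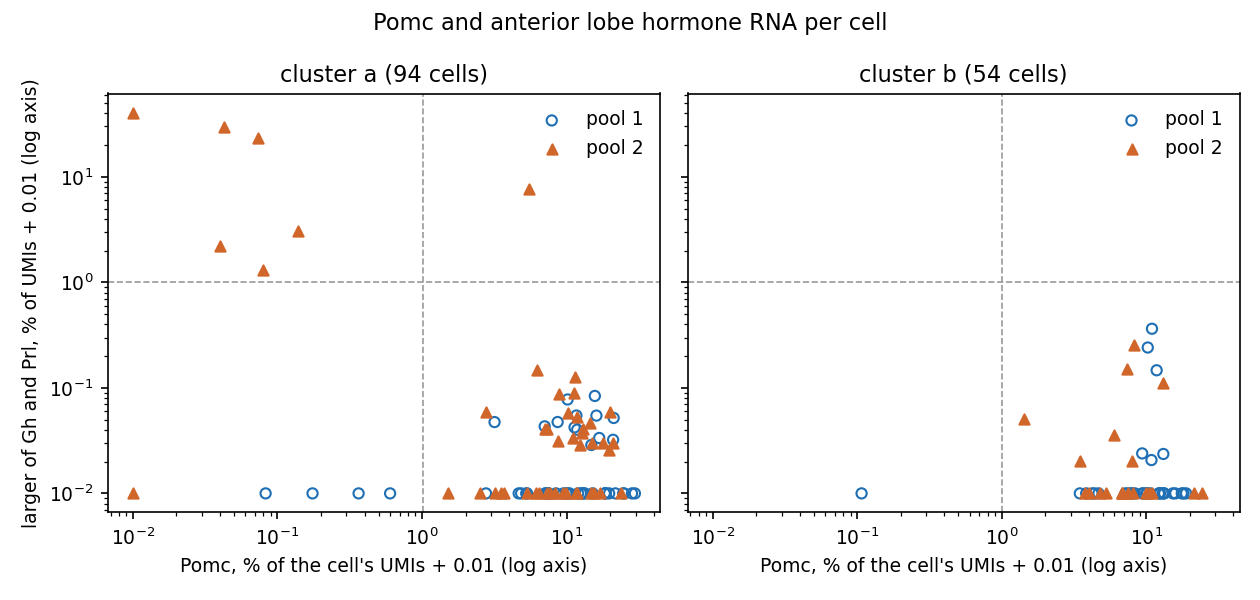
Each cell of cluster a (left) and cluster b (right) by its share of *Pomc* UMIs (x axis) and the larger of its *Gh* and *Prl* shares (y axis), both in % of the cell's UMIs plus 0.01 on log axes, with circles for pool 1, triangles for pool 2 and dashed lines at 1%. All 7 cells above the horizontal line are cells of cluster a from pool 2, and 6 of them lie left of the vertical line.

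Among the 82 cells with *Pomc* at 1% or more and both hormones under 1%, 6 had no UMI of *Pcsk2*, against 1 of 53 such cells in cluster b. The imprinted gene *Nnat*, which encodes a small membrane protein of the endoplasmic reticulum (ER), was at 0.1% or more of the UMIs in 1 such cell of pool 1 and 4 of pool 2. These 4 cells of pool 2 together had 1627 UMIs of *Pomc*, 101 of *Nnat*, 3 of *Pcsk2* and 0 of *Pax7* among 17845 UMIs. Of the 4 UMIs that cluster a had in pool 2 of *Crhr1*, the receptor for corticotropin-releasing hormone that corticotropes carry, 3 lay in 1 of these cells and 0 in the others, and cluster b had 1 and 4 UMIs of it. The cell of pool 1 had 169 UMIs of *Pomc*, 28 of *Nnat* and 0 of *Pcsk2* and *Pax7*. The whole of cluster a had 15 and 17 UMIs of *Pax7*, so its count of 0 in these few cells says little, and they were not given another name. In cluster b, 1 cell of pool 1 and 0 of pool 2 had *Nnat* at 0.1% or more.

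Cluster a made up 58.8% of all cells of clusters a and b in pool 1 (exact Clopper-Pearson 95% interval 47.2 to 69.6%) and 69.1% in pool 2 (56.7 to 79.8%). Among all kept cells its share was 17.2% and 18.4%. These intervals cover counting error only, since cells of a pool are not replicates. The shares of pool 2 include the cells with much *Gh* or *Prl*. Among cells with *Pomc* at 1% or more and both hormones under 1%, cluster a held 43 and cluster b 32 in pool 1. In pool 2 they held 39 and 21.

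Cells of cluster a were shallower than those of cluster b and carried less mitochondrial RNA. Their median depth was 2840.0 UMIs and 1325 genes in pool 1 and 3202 UMIs and 1473 genes in pool 2. The medians of cluster b were 3510.0 UMIs and 1530.0 genes in pool 1 and 3981 UMIs and 1661 genes in pool 2. The ratio of the median UMIs, a over b, was 0.809 in pool 1 and 0.804 in pool 2. Among cells under a mitochondrial limit of 10% it was 0.430 as the mean of the pools. The medians there were 3205 and 3382 UMIs in cluster a and 7029.5 and 8363 UMIs in cluster b. Mitochondrial genes made up a median of 9.16% of the UMIs of cluster a in pool 1 and 8.63% in pool 2, and of 13.4% and 14.1% in cluster b. The single cells overlapped widely, since the highest cell of cluster a had 17.1% in pool 1 and the lowest of cluster b had 6.68%. When only cells with 2000 to 5000 UMIs were compared, the medians were 9.08% and 8.51% in cluster a (32 and 32 cells) and 16.05% and 15.3% in cluster b (17 and 11 cells). With a limit of 10%, which bounds the measure itself and left 8 and 5 cells of cluster b, the medians were 7.64% and 7.94% in cluster a and 8.45% and 7.34% in cluster b, so that cluster a was the higher in pool 2. The mitochondrial share was lower in deeper cells of cluster a, with Spearman's rho over 47 cells of -0.58 in pool 1 and -0.56 in pool 2. Both measures are taken from the same UMIs of a cell.

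**Figure D3:**
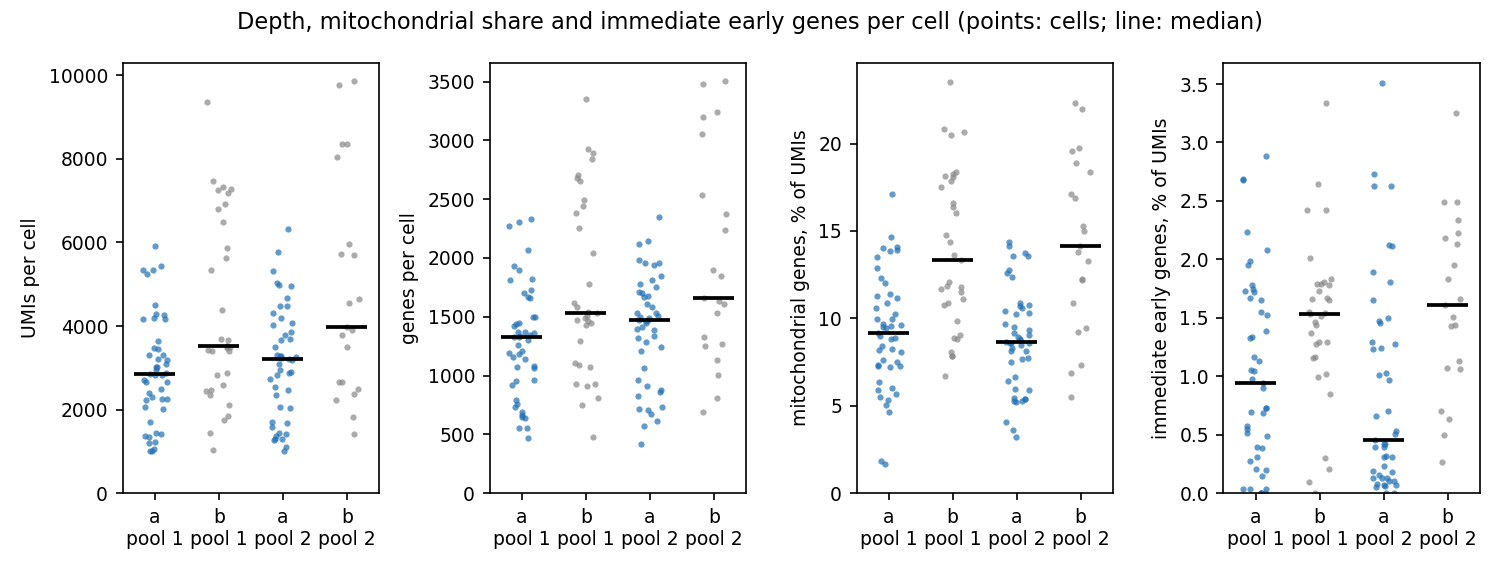
UMIs, genes, mitochondrial share and share of the 25 immediate early genes per cell in clusters a (blue) and b (grey) of each pool, with 1 point per cell and a line at the median. The medians of cluster a lie below those of cluster b in all 4 panels and both pools, and the clouds of cells overlap.

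Clusters a and b were compared by the log2 ratio of CPM + 50 within each pool, over 3435 genes with at least 10 UMIs in both clusters together in each pool. The pseudocount makes the ratios of scarce genes smaller than those of their CPM. The ratios were not tested, because the cells were clustered on these genes. At a ratio of at least 2 in each pool, 4 genes (0.116%) were higher in cluster a and 5 (0.146%) were lower. At 1.5 in each pool, 46 (1.34%) were higher and 45 (1.31%) lower. The same direction in both pools, at any size, was found in 1017 genes higher (29.6%) and 949 lower (27.6%). This balance moved with the processing. It was 1179 higher and 794 lower with TMM factors, 1123 and 696 among cells with 2000 to 5000 UMIs, 889 and 1029 with a mitochondrial limit of 10%, and 937 and 1076 when cells went to the nearest mean. Across genes, the ratios of the 2 pools had a Pearson correlation of 0.19, so most of the difference of a single gene in a pool was not found again in the other.

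The 4 higher genes were *Nnat*, *Rbm45*, *Apoe* and *Hyou1*. *Hyou1*, a chaperone of the ER, had 346 and 365 CPM in cluster a and 147 and 108 CPM in cluster b. That was 2.35-fold higher in pool 1 (exact 95% counting interval 1.38 to 4.13) and 3.38-fold in pool 2 (1.75 to 7.17), and 44 of the 94 cells had a UMI. *Apoe*, a lipid carrier that glia and macrophages make in large amounts, had 202 and 277 CPM in cluster a and 63.1 and 108 CPM in cluster b. Its levels in macrophages and microglia of the same pools were 15000 and 8275 CPM. Without the cells that had little *Pomc* or much *Gh* or *Prl*, its log2 ratio in pool 2 was 0.58 and it was no longer called. *Rbm45*, an RNA-binding protein, rested on 13 and 12 UMIs in cluster a and 1 and 1 in cluster b. *Nnat* had 310.1 and 2808 CPM in cluster a and 84.1 and 19.7 CPM in cluster b. In pool 1, 28 of its 43 UMIs came from 1 cell. In pool 2, 311 of its 415 UMIs came from the cells with little *Pomc* or with much *Gh* or *Prl*. Without those cells its log2 ratios were 1.44 and 3.68, and it was still called. Of its UMIs that remained in pool 2, 101 lay in the 4 cells with *Pomc* and *Nnat* described above. In cluster b, 10 of its 12 UMIs in pool 1 came from 1 cell. Epithelial-like cells had more *Nnat* than cluster a, with 3210 and 4958 CPM.

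The 5 lower genes were *Fosb*, *Gem*, *Jund*, *Ino80d* and *Zfp36*. *Fosb*, a subunit of the AP-1 transcription factor, had 296 and 209.7 CPM in cluster a and 687 and 531 CPM in cluster b, which was 0.43-fold in pool 1 (exact 95% counting interval 0.29 to 0.63) and 0.40-fold in pool 2 (0.25 to 0.63). *Jund*, another AP-1 subunit, had 238 and 183 CPM in cluster a and 539.9 and 541 CPM in cluster b. *Zfp36*, which encodes tristetraprolin, a protein that speeds the decay of short-lived mRNAs, had 166 and 196 CPM in cluster a and 386 and 531 CPM in cluster b. *Gem*, a small GTPase that restrains calcium channels, had 86.5 and 74.4 CPM against 231 and 315 CPM. *Ino80d*, a part of a chromatin remodelling complex, rested on 5 and 7 UMIs in cluster a and 19 and 15 in cluster b. In all 5 genes both pools of cluster a were below both pools of cluster b. After each cell was thinned to 1000 UMIs, *Apoe*, *Hyou1* and *Zfp36* were still called, and among cells with 2000 to 5000 UMIs only *Nnat* was. All 9 mean log2 ratios over the pools kept their direction, and most kept most of their size, while a call needs the ratio in each pool. *Fosb* had -1.13 as reported, -1.09 after thinning and -1.07 in the depth range, and *Apoe* had 1.10, 1.18 and 1.02. *Jund* did not hold, with -1.19 as reported, -0.27 after thinning and -0.46 in the depth range. *Hyou1* had 1.41 after thinning and 0.71 in the depth range. Several calls lay near the limit. *Ino80d* and *Zfp36* were lost with TMM factors, and *Jund*, *Zfp36* and *Apoe* in the cells with *Pomc* and without much *Gh* or *Prl*. *Apoe* and *Fosb* were lost with the nearest mean, and *Hyou1*, *Ino80d* and *Jund* with each cell weighted equally. *Apoe* was also lost with free RNA subtracted, although its mean log2 ratio was higher there, at 1.41 against 1.10 as reported. The part of free RNA in the *Apoe* difference was not tested. With a mitochondrial limit of 10%, which left 8 and 5 cells of cluster b, only *Hyou1* and *Jund* of the 9 were called. The mean log2 ratios of the others there were 3.15 (*Nnat*), 1.45 (*Rbm45*), 0.89 (*Apoe*), -1.08 (*Fosb*), -1.23 (*Gem*), -1.52 (*Ino80d*) and -1.09 (*Zfp36*).

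**Figure D4:**
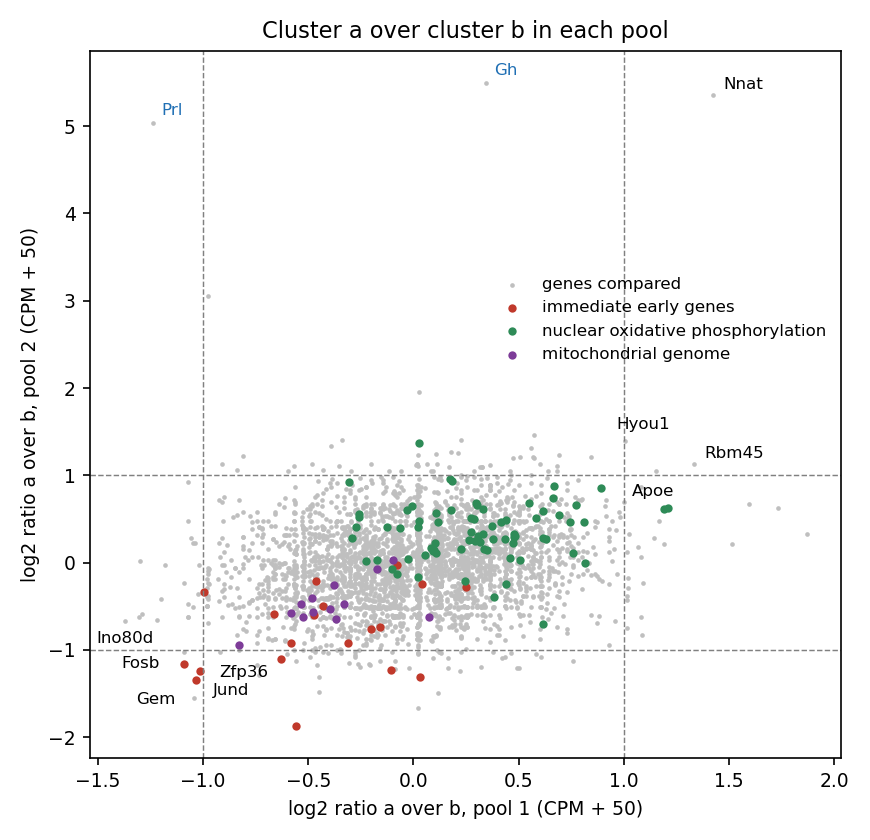
Log2 ratio of cluster a over cluster b (CPM + 50) in pool 1 (x axis) and pool 2 (y axis) for the 3435 genes compared, with 3 gene lists in colour, dashed lines at a ratio of 2 and the 9 called genes named. Most immediate early genes lie in the lower left and most nuclear genes of oxidative phosphorylation in the upper right, while *Gh* and *Prl* are far up in pool 2 alone.

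*Fosb*, *Jund* and *Zfp36* were in the list of 25 immediate early genes. Cells switch on most genes of this kind within minutes of a stimulus, through transcription factors that are already present. Of the 25 genes, 19 passed the minimum of 10 UMIs. Of these, 16 (84.2%) were lower in cluster a in both pools and 0 were higher, against 27.6% and 29.6% of all genes compared. The median log2 ratio of the 19 genes was -0.46 in pool 1 and -0.75 in pool 2, and that of all genes was 0.02 and -0.01. *Fos*, the member with most UMIs, had 2654 and 2733 CPM in cluster a and 4228 and 4119 CPM in cluster b, and *Egr1* had 1024 and 798 CPM against 1613 and 1769 CPM. *Btg2*, an antiproliferative factor, had 1190.0 and 1272 CPM against 1669 and 1956 CPM. *Junb* had 1507 and 1468 CPM in cluster a and 1465 and 1749.6 CPM in cluster b, and its pools overlapped. *Klf4* had 0 and 1 UMIs in cluster a and 2 and 11 in cluster b and was not compared.

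Cell by cell, the 25 genes took a median of 0.940% of the UMIs of a cell in cluster a in pool 1 and 0.459% in pool 2, against 1.53% and 1.61% in cluster b. With only cells of 2000 to 5000 UMIs the medians were 1.05% and 0.599% against 1.44% and 1.51%. After thinning to 1000 UMIs, an *Egr1* UMI was found in 34.04% of the cells of cluster a in pool 1 and 38.3% in pool 2 (53.2% and 57.4% unthinned). In cluster b it was found in 75.8% and 85.7% (87.9% and 95.2% unthinned), and in T-cell like cells, whose median depth was 1566 and 1621.5 UMIs, in 0% and 12.5% (0% and 18.8% unthinned). For *Fos* the thinned shares were 63.8% and 59.6% in cluster a and 84.8% and 81.0% in cluster b. Those of *Fosb* were 23.4% and 12.8% against 30.3% and 38.1%, and those of *Zfp36* were 8.51% and 12.8% against 36.4% and 23.8%. *Jund* was nearly equal in pool 1, with 25.5% and 14.9% against 27.3% and 23.8%. Cells are not replicates and the clusters rest on these genes, so the shares are a description, and *Egr1* was chosen after its values were seen. Heat shock genes, which cell stress also switches on, were less uniform. Of 12 compared, 5 (41.7%) were lower in both pools and 1 (8.33%) was higher, against 27.6% and 29.6% of all genes compared, with medians of -0.65 and -0.14. *Dnajb1* had 447 and 250.3 CPM in cluster a and 1108 and 423 CPM in cluster b, while *Hspa1a* was lower in pool 1 (log2 ratio -1.07) and higher in pool 2 (0.93). The part that enzymatic dissociation had in these levels was not tested. In the cells with *Pomc* and without much *Gh* or *Prl*, the median log2 ratio of the immediate early genes was -0.43 and -0.80.

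Many immediate early genes are induced through the transcription factor CREB, which binds the cyclic AMP response element TGACGTCA or its core TGACG. The upstream DNA of 5 genes that were lower in cluster a in both pools is shown because they share this core. *Dusp1* and *Nr4a1*, a phosphatase of MAP kinases and an orphan nuclear receptor, were chosen after their values were seen. *Dusp1* had 664 and 534 CPM in cluster a and 1017 and 1052 CPM in cluster b, and *Nr4a1* had 555 and 460.1 CPM against 764 and 668 CPM. The sequences are from RefSeq promoters of build GRCm38.p6, 80 bases each, written 5′ to 3′ on the strand of the gene, with each core on either strand (TGACG or CGTCA) in capitals. The window of *Fosb* is chr7:19310081-19310160 on the minus strand, from 115 to 36 bases before the start site, and that of *Fos* is chr12:85473769-85473848 on the plus strand, from 121 to 42 bases before it. *Btg2* is shown at chr1:134079294-134079373, minus strand, *Dusp1* at chr17:26508588-26508667, minus strand, and *Nr4a1* at chr15:101266751-101266830, plus strand.
Fosb: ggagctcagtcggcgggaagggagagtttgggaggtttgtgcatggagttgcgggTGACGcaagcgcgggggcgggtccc
Fos: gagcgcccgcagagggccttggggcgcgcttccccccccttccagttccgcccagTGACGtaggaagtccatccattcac
Btg2: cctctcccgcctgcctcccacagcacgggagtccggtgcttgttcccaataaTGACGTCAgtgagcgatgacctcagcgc
Dusp1: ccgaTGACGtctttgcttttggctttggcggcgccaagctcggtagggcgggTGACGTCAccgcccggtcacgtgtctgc
Nr4a1: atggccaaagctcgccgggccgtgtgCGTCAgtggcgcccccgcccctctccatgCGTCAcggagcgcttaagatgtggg

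The search covered 250 bases before the start site on both strands, and the full element holds the core on each strand. The full element was found in 2 of the 21 immediate early genes with a promoter in the table, *Btg2* and *Dusp1*, and in 1.77% of all 27025 genes there. The core was found in 12 of the 21 (57.1%) and in 19.8% of all genes. Among the 14 genes with a promoter that were lower in both pools, 8 (57.1%) held it. A match is a description of the letters and was not linked to the levels.

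The 13 protein genes of the mitochondrial genome and the nuclear genes of the same respiratory chain differed in opposite directions. Among all genes compared, 27.6% were lower and 29.6% higher in both pools. Of the 13, 11 (84.6%) were lower in cluster a in both pools and 0 higher, with medians of -0.40 and -0.53. *mt-Co1*, which encodes the catalytic subunit of cytochrome c oxidase, had 15023 and 13376 CPM in cluster a and 26736 and 25714 CPM in cluster b, a ratio of 0.56 and 0.52. The limit on mitochondrial share bounds this measure in both clusters. The median as a mean of the pools was -0.46 as reported, -0.05 with a limit of 10%, -0.69 with free RNA subtracted and -0.78 among cells with 2000 to 5000 UMIs. Of 92 nuclear genes of oxidative phosphorylation, 74 were compared. Of these, 55 (74.3%) were higher in cluster a in both pools and 2, *Atp5e* and *Sdhc*, were lower, with medians of 0.30 and 0.34. *Ndufv3*, a subunit of complex I, had 642 and 521 CPM against 323 and 265 CPM, and *Uqcr10*, a subunit of complex III, had 563 and 433 CPM against 309 and 256 CPM. *Atp5e*, the member with most UMIs, was slightly lower, with log2 ratios of -0.10 and -0.08, and *Cox8a*, the next, had 1219 and 1157 CPM against 975 and 924 CPM. Of 82 cytosolic ribosomal protein genes compared, 60 (73.2%) were higher in both pools and 1 lower, with small medians of 0.21 and 0.17. Their most abundant members did not show it: *Rpl41* had log2 ratios of 0.06 and -0.06 and *Rps29* had 0.12 and -0.10. In the 82 cells with *Pomc* and without much *Gh* or *Prl*, set against such cells of cluster b, the medians were -0.42 and -0.52 for the mitochondrial genome, 0.24 and 0.33 for nuclear oxidative phosphorylation and 0.13 and 0.11 for ribosomal proteins. CPM share out 1 total, so the scaling was also done without *Pomc* and the mitochondrial genes. The medians, as means of the pools, were then -0.50 for the mitochondrial genome (-0.46 as reported), 0.31 for nuclear oxidative phosphorylation (0.32) and 0.16 for ribosomal proteins (0.19).

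The hormone gene differed little between the clusters, and *Pam* differed most among the named processing enzymes. *Pomc* was higher in cluster a by a log2 ratio of 0.26 in pool 1 and 0.33 in pool 2, from levels of 109005 and 77712 CPM in cluster b. The pools of each cluster differed by more than this, so the levels of a and b overlapped. Only the ratios within a pool were on the same side. Among cells chosen for having *Pomc* and without much *Gh* or *Prl*, the log2 ratios of *Pomc* were 0.30 and 0.57. As the mean of the pools, its log2 ratio was 0.29 as reported, 0.15 after thinning and 0.50 with a mitochondrial limit of 10%. Of 8 genes of prohormone processing compared, *Pomc* among them, 5 (62.5%) were higher in both pools and 1 (12.5%) lower, against 29.6% and 27.6% of all genes compared. *Pam* had 1168 and 1549 CPM in cluster a and 687 and 953 CPM in cluster b, which was 1.70-fold higher in pool 1 (exact 95% counting interval 1.32 to 2.21) and 1.62-fold in pool 2 (1.28 to 2.08). *Pcsk2*, the lower one, had log2 ratios of -0.04 and -0.14, and of 0.01 and 0.10 in cells with *Pomc* and without much *Gh* or *Prl*. *Pcsk1n*, which encodes the precursor proSAAS, had 2979 and 3478 CPM against 2875 and 3303 CPM. *Cpe* had log2 ratios of 0.06 and -0.11, and *Pcsk1*, another prohormone convertase, had 1 and 5 UMIs in cluster a. Of 5 granins and related genes compared, *Resp18* and *Chgb* were higher in both pools, *Chgb* by log2 ratios of 0.01 and 1.12, and *Chga* was lower with -0.10 and -0.11. In cells with *Pomc* and without much *Gh* or *Prl*, *Chgb* had 0.05 and 0.33 and *Chga* had -0.06 and 0.08. *Scg2* had 1190.0 and 1157 CPM in cluster a and 799 and 1179.5 CPM in cluster b.

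Genes of ER translocation and folding, through which prohormones enter the secretory path, numbered 29, of which 27 were compared. Of these, 12 (44.4%) were higher in cluster a in both pools and 4 (14.8%) lower, against 29.6% and 27.6% of all genes compared, with medians of 0.11 and 0.38. In cells with *Pomc* and without much *Gh* or *Prl* the medians were 0.14 and 0.17. Besides *Hyou1*, 3 were at least 1.5-fold higher in both pools. With *Hyou1* that was 4 of the 27, against 1.34% of all genes compared. *Manf*, a secreted ER stress protein, had 259.6 and 244 CPM against 154 and 138 CPM (log2 ratios of 0.60 and 0.65, and of 0.53 and 0.33 in those cells), *Dnajc3*, a cochaperone, had 123 and 115 CPM against 56.1 and 49.1 CPM, and *Sec11a* is part of the signal peptidase. The member with most UMIs, *Sec61a1* of the translocation channel, had log2 ratios of -0.13 and -0.13. The main ER chaperone *Hspa5* had -0.20 and 0.43. Of 5 ER stress genes compared, 2 (40%) were higher and 1 (20%) was lower in both pools, near the shares of all genes.

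Lists of genes of release and excitability differed by small median ratios, though some scarce members differed by more. Their counts are set against 27.6% lower and 29.6% higher among all genes compared. Of 23 genes of regulated exocytosis compared, 13 (56.5%) were lower and 4 higher in both pools, with medians of -0.06 and -0.25. Among cells with 2000 to 5000 UMIs the medians of this list were -0.13 and -0.08. Over all cells of the clusters, single members were as follows. *Snap25* had log2 ratios of -0.08 and -0.25, *Syt1*, a calcium sensor of release, -0.56 and -0.25, and *Syt4* -0.69 and -0.17. Of 9 ion channel genes compared, 4 (44.4%) were lower and 0 higher, too few genes to set apart from that share. *Cacnb3*, a regulatory subunit of calcium channels, had -0.84 and -0.83 on 4 and 9 UMIs in cluster a. Of 9 genes of cyclic AMP signalling compared, 5 (55.6%) were lower and 0 higher, with medians of -0.11 and -0.35. The most abundant of them, *Gnas*, which encodes the stimulatory G protein, had -0.06 and 0.08, and *Crem*, an inducible regulator of the same response element, had 3 and 5 UMIs in cluster a and 11 and 12 in cluster b. Of 25 receptor genes, 7 could be compared, of which 3 (42.9%) were lower and 1 (14.3%) higher. *Gria2* had the most UMIs and log2 ratios of -0.35 and -0.11, and of -0.31 and 0.05 in cells with *Pomc* and without much *Gh* or *Prl*. *Drd2*, the dopamine receptor through which melanotropes are held back, had 1 and 0 UMIs in cluster a and 1 and 0 in cluster b, too few to compare.

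Of 7 lineage transcription factors compared, 6 (85.7%) were lower and 0 higher in cluster a in both pools, against 27.6% and 29.6% of all genes compared, with medians of -0.25 and -0.53. *Nr4a1*, the member with most UMIs, is also counted among the immediate early genes. *Pax7* had 108 and 115 CPM in cluster a, from 15 and 17 UMIs, and 161 and 206 CPM in cluster b. *Tbx19*, the factor that turns on *Pomc* transcription, had 144 and 60.9 CPM against 147 and 206 CPM, and its log2 ratio in pool 1 was only -0.02. *Six3*, a homeobox factor, had log2 ratios of -0.25 and -0.53. With only cells that had *Pomc* and no high *Gh* or *Prl*, the medians were -0.22 and -0.45. Of 7 imprinted genes compared, *Nnat* was higher, *Meg3* and *Peg3* were lower in both pools. *Dlk1* had 3 UMIs in pool 1 and 66 in pool 2 in cluster a. Of 5 nuclear long RNAs, *Malat1* had log2 ratios of 0.09 and 0.26 and *Neat1* had -0.56 and -0.35.

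**Figure D5:**
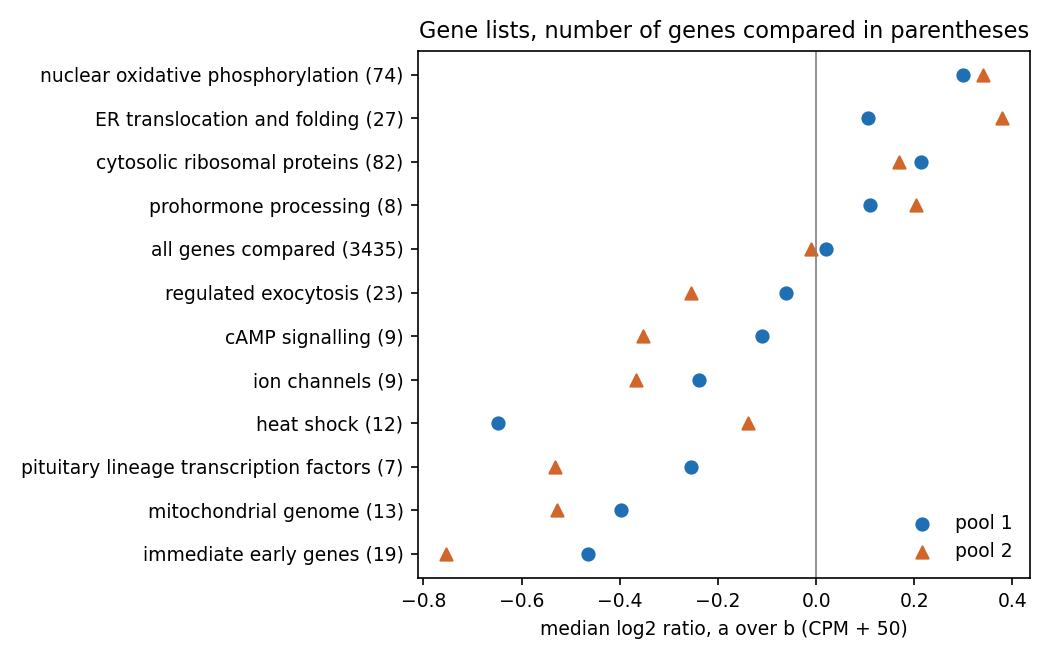
Median log2 ratio of cluster a over cluster b (CPM + 50, x axis) of 11 gene lists and of all genes compared, with circles for pool 1 and triangles for pool 2 and the number of genes compared in parentheses. Nuclear oxidative phosphorylation lies at 0.30 and 0.34 and the immediate early genes at -0.46 and -0.75, on either side of all genes at 0.02 and -0.01.

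Reassignment of the cells by the nearest cluster mean kept 88 of the 94 cells in cluster a. Of the other 6 cells, 2 went to cluster b, 3 to pituicytes and 1 to T-cell like cells, and 2 cells of other clusters came in. Scrublet marked 5 of the 528 cells as doublets, of which 1 lay in cluster a and 0 in cluster b. Without these 5 cells *Zfp36* was no longer called, with a mean log2 ratio of -1.11 against -1.13 as reported.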

How the data were processed

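NH tissue of 2 pools was measured by 10x single-cell RNA-Seq. A table of raw UMI counts, with genes as rows and barcodes as columns, was deposited for each pool after alignment to mm10 in Cell Ranger. The authors also deposited a table with 11 columns of no single sample, the mean over each cluster of UMI counts scaled to 10000 per cell. The submitters' processing notes name Cell Ranger 1.2.1, 2.0.0 and 2.1, STAR 2.5.1b and Seurat 2.3. No column of per-sample values was left out.

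Barcodes with more than 1000 and fewer than 10000 UMIs, more than 400 and fewer than 5000 genes and under 25% mitochondrial UMIs were kept (273 and 255 cells, with 699676 and 726706 UMIs). The study's clustering was made on both pools together. Counts were summed per cluster and pool and divided by all UMIs. Ratios were taken within a pool, with a pseudocount of 50 CPM. No test was run, since there was 1 condition and the clusters rest on the same genes. Intervals are exact at the 95% level and cover counting error only. Genes named are the 12 with the largest ratio in each direction among those called (all were named), the 10 with most UMIs in cluster a, the 10 highest against other types, and list members with most UMIs. All other list members in the text were chosen after their values were seen. The members and lists were chosen with earlier results of these data known. Some genes of the lists of lineage factors and neural progenitors are not reported here and were left out of the counts and medians of these lists. Ribosomal proteins were taken by symbol, without kinases and pseudogenes. Doublets were called with Scrublet in scanpy 1.11.5 and kept. TMM factors came from edgeR 4.0.16. Gene coordinates are from GENCODE on GRCm38. The scripts were tested on simulated data. Ratios of near-identical gene copies (*Hspa1a* and *Hspa1b*, ribosomal proteins, hemoglobins) are uncertain.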

Additional observations from a re-analysis of the deposited data

Results flagged for a closer look

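Barcodes outside the kept cells also carried much *Pomc*. Among barcodes with 500 to 1000 UMIs, *Pomc* made up at least 3% of the UMIs in 9 of 124 in pool 1 and 18 of 121 in pool 2. Among barcodes with over 1000 UMIs and a mitochondrial share of 25% or more, this was so in 10 of 73 in pool 1 and 13 of 51 in pool 2. Among kept cells the numbers were 76 of 273 and 59 of 255. The barcodes outside were in no comparison of the report. Pooled barcodes of 1 to 50 UMIs in pool 1, taken as free RNA, held 1.57% *Pomc*.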

How the results depend on the processing

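As means of the pools, the results listed here and the medians of the main gene lists kept their direction. Small ratios of single genes did not all do so: *Pcsk2*, *Chga* and *Gria2* were not lower in both pools in the cells with *Pomc* and without much *Gh* or *Prl*, and the balance of all genes turned to more lower than higher with the 10% limit and with the nearest mean. With 4 higher and 5 lower as reported, TMM factors gave 4 and 3, thinning to 1000 UMIs gave 7 and 6, and a mitochondrial limit of 10% gave 11 and 4. A pseudocount of 10 CPM gave 25 and 29, and a ratio of 1.5 gave 46 and 45. Without 1 pool they ran from 39 to 70 higher and from 33 to 76 lower. In choices added after the data were seen, cells with *Pomc* at 1% or more and *Gh* and *Prl* under 1% gave 4 and 3, and cells with 2000 to 5000 UMIs gave 7 and 2. Of the genes reported, thinning shared 2 higher and 1 lower, the 10% limit 1 and 1, and the depth range 1 and 0. The log2 ratio of *Pomc* was 0.29 as the mean of the pools. It was 0.38 with TMM factors, 0.15 with each cell weighted equally, 0.15 after thinning and 0.50 with the 10% limit. In cells with *Pomc* it was 0.43, in the depth range 0.18 and without 1 pool 0.26 to 0.33. Choosing cells by *Pomc* raises this ratio, since it left 82 of 94 cells of cluster a and 53 of 54 of cluster b. The ratio of median UMIs, 0.807, was 0.430 with the 10% limit, 0.822 in cells with *Pomc* and 0.804 to 0.809 without 1 pool. The difference in mitochondrial share, -4.85 percentage points, was -0.10 with the 10% limit (with cluster a higher in pool 2), -6.88 in the depth range and -5.50 to -4.19 without 1 pool. The share of cluster a, 63.9%, was 83.0% with the 10% limit, which left 8 and 5 cells of cluster b, and 58.8% to 69.1% without 1 pool. Depth limits scarce genes, since 1 UMI is worth 7.21 and 6.77 CPM in cluster a. Ratios of cluster a over b were taken within a pool, so each comparison is paired by pool, and none was tested.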

Other observations

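*Pecam1*, an endothelial adhesion gene, had 33 and 47 UMIs in cluster a (238 and 318 CPM), where *Emcn*, *Plvap*, *Flt1* and *Cldn5* had 0. It was found in every type of both pools, with 255 and 275 CPM in T-cell like cells, 373 and 446 CPM in pituicytes and 1146 and 641 CPM in vascular endothelia. Outside the IL clusters, *Pomc* made up at least 1% of the UMIs in 2 pituicytes of pool 1 (3.00% and 17.7%) and 2 of pool 2 (7.30% and 9.05%), in 1 cell of macrophages and microglia in each pool and in 1 epithelial-like cell of pool 2. *Gh* or *Prl* reached 1% in 2 epithelial-like cells of pool 1 and in no other kept cell outside cluster a. The epithelial-like cells of pool 1 had 671 UMIs of *Gh* (34736 CPM).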
